A study of Menidia menidia with 24 samples.

Results

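The 12 Atlantic silverside larvae described here, of 24 sequenced, all came from parents exposed to HypOA, a combination of low oxygen and high carbon dioxide. Per the study's methods, the parents met HypOA only at night, for some days before spawning, with control water by day. On some nights HypOA was not fully reached, whereas rearing conditions of the offspring were constant. The 12 larvae were chosen by their labels, and no measured value was used. The 6 HH larvae were themselves reared under HypOA, and the 6 HC larvae were reared under control conditions, so HH against HC gives the response to rearing in the offspring of HypOA parents. Per the labels, HypOA rearing meant 35% dissolved oxygen with 2500 µatm carbon dioxide, control rearing meant 100% dissolved oxygen with 600 µatm, and all embryos and larvae were kept at 20 °C and sampled whole at 19 dpf (days post-fertilization). The study's methods give slightly different levels. The other 12 larvae came from control parents and were reared under HypOA (CH, n=6) or control conditions (CC, n=6).

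Every larva of *Menidia menidia* carried the wild-type label and descended from wild adults. Per the methods, the parents of a treatment were kept in a single tank for each sex, so HH and HC larvae share 1 group of parents and the parental treatment cannot be told apart from that group. The methods took more than 1 larva from each rearing container sampled, so a group has fewer containers than larvae. The labels do not give the container, and each larva was treated as independent. The p-values therefore measure the spread between larvae, part of which may be spread between containers. They may be too small where larvae of 1 container are alike. HypOA-reared larvae were also smaller at the same age, and the part of body size or stage in the differences was not tested.

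When oxygen is low, the electron transport chain of mitochondria has less of its final electron acceptor. Its complexes depend on iron-sulfur clusters and haem, and its leaked electrons form superoxide, which superoxide dismutases and peroxiredoxins remove in sequence. Fish under chronic hypoxia are known to alter the globins that carry and store oxygen, and slow growth is a common cost. In a whole larva, RNA of all tissues is mixed, so that fewer cells of a type and less RNA per cell cannot be told apart for any transcript below.

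Counted reads per larva ranged from 12136995 to 15294834 in HH larvae (median 13758847) and from 11688851 to 13077214 in HC larvae (median 12707670). HH larvae had more counted reads on average, by 0.12 on the log2 scale, a difference that did not pass the two-sided exact permutation test over the 924 splits of the 12 larvae (p=0.0628, against a smallest possible p of 0.00216) unless HH 1 (exact permutation p=0.0368) or HH 6 (exact permutation p=0.0152) was left out. The share of reads counted on transcripts was 72.9±0.462% in HH larvae and 73.8±0.565% in HC larvae (mean±s.d., n=6 each; exact permutation p=0.0195, 0.0717 after adjustment over 8 such measures). No pair of larvae agreed within sampling noise. Values below are CPM, the count of a transcript divided by the TMM-scaled total of its larva and brought to the usual common total.

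Few transcripts passed the threshold for a response to HypOA rearing in the offspring of HypOA parents. Of 17262 transcripts tested with edgeR's quasi-likelihood test at a Benjamini-Hochberg FDR of 0.05, 4 were differentially expressed (DETs, 0.0232%), with 1 higher in HH larvae (0.00579%) and 3 lower (0.0174%). All 4 encode mitochondrial, iron-sulfur or antioxidant proteins. DESeq2 called 64 transcripts, and leaving CC 2, CH 2 or HH 4 out of the edgeR fit gave 8, 7 or 2 DETs in that order. At an unadjusted p below 0.05 there were 1422 transcripts (8.24%), 660 higher and 762 lower. HH and HC larvae did not overlap for 162 transcripts (0.938%). Between CH and CC larvae, fitted in the same model, 1597 transcripts were DETs (9.25%), a number that was 849 without CC 1 and 856 without CC 2. With only the compared groups in the fit, 14 transcripts were DETs between HH and HC larvae and 544 between CH and CC larvae. Rearing accounted for 12.5% of the distances between the 12 expression profiles (exact permutation p=0.0606 over 924 splits, and 0.0346 without HH 5, 0.0411 without HC 2, 0.0346 without HC 3 and 0.0368 without HC 5), and for 20.1% between CH and CC larvae (exact permutation p=0.00433). By mean distance, HC 1, HC 2, HC 3 and HC 5 were closer to the HH larvae than to the other HC larvae. HC 4, HC 6 and every HH larva were closer to their own group. No transcript passed FDR 0.05 for the interaction of parental and offspring treatment, the difference between both responses (smallest edgeR FDR 0.210, with 1845 transcripts or 10.7% at an unadjusted p below 0.05; limma-voom called 0 and DESeq2 called 4).

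The lowest FDR belonged to ISCU (mme11399), the scaffold on which mitochondria assemble iron-sulfur clusters. Its level in HH larvae had a lowest value of 17.95, a median of 23.2 and a highest value of 28.6 CPM, against 49.7, 58.7 and 60.1 CPM in HC larvae. Every HH larva lay far below every HC larva, and the HC larvae were tightly grouped apart from 1 low larva. ISCU fell, with a log2 fold change of -1.29 (SE 0.13, edgeR FDR 5.64e-06), and the response in the offspring of control parents was -1.06. The levels in CH larvae (median 26.3 CPM) and CC larvae (median 56.9 CPM) were close to those of HH and HC larvae, with an interaction of -0.23 (SE 0.18, edgeR FDR 0.677).

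PRDX5 (mme10897), a peroxiredoxin that reduces hydrogen peroxide and other peroxides in mitochondria and other compartments, was lower in every HH larva than in any HC larva. Its lowest, median and highest levels were 71.2, 82.5 and 91.9 CPM in HH larvae, against 127, 166 and 204 CPM in HC larvae. The HC larvae spread over a wide range and the HH larvae over a narrow one. PRDX5 fell, with a log2 fold change of -1.03 (SE 0.11, edgeR FDR 9.71e-06). In the offspring of control parents the log2 fold change was -0.57, with medians of 109 CPM in CH larvae and 163 CPM in CC larvae. The interaction was -0.46 (SE 0.15) and did not pass the adjustment over all transcripts (edgeR FDR 0.366).

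SODC (mme10565), the copper-zinc superoxide dismutase that turns superoxide into hydrogen peroxide, was the third DET that fell. HH larvae had lowest, median and highest levels of 68.7, 78.6 and 88.2 CPM, and HC larvae had 102, 111 and 128 CPM. The groups did not overlap, although the gap between them was small beside that of ISCU. The log2 fold change was -0.52 (SE 0.09, edgeR FDR 0.0143), and the call was lost without HH 3 (FDR 0.0606) or HH 4 (FDR 0.0774).

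CX6B1 (mme16698), a subunit of cytochrome c oxidase, the complex that passes electrons to oxygen, was the DET that rose. Its lowest, median and highest levels were 94.1, 154 and 207 CPM in HH larvae, against 42.4, 59.7 and 98.2 CPM in HC larvae. The ranges overlapped, with 5 of 6 HH larvae above every HC larva and all 6 above the HC median. The log2 fold change was 1.24 (SE 0.22, edgeR FDR 0.0317), and it was 1.75 in the offspring of control parents (interaction -0.51, SE 0.31, edgeR FDR 0.558). The call rested on many larvae. It was lost without HH 1 (FDR 0.0849), HH 2 (0.0880), HH 4 (0.0924), HC 3 (0.0716), HC 4 (0.0824), HC 5 (0.0816) or HC 6 (0.121), and with HH and HC larvae alone in the fit (0.0715).

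**Figure D1:**
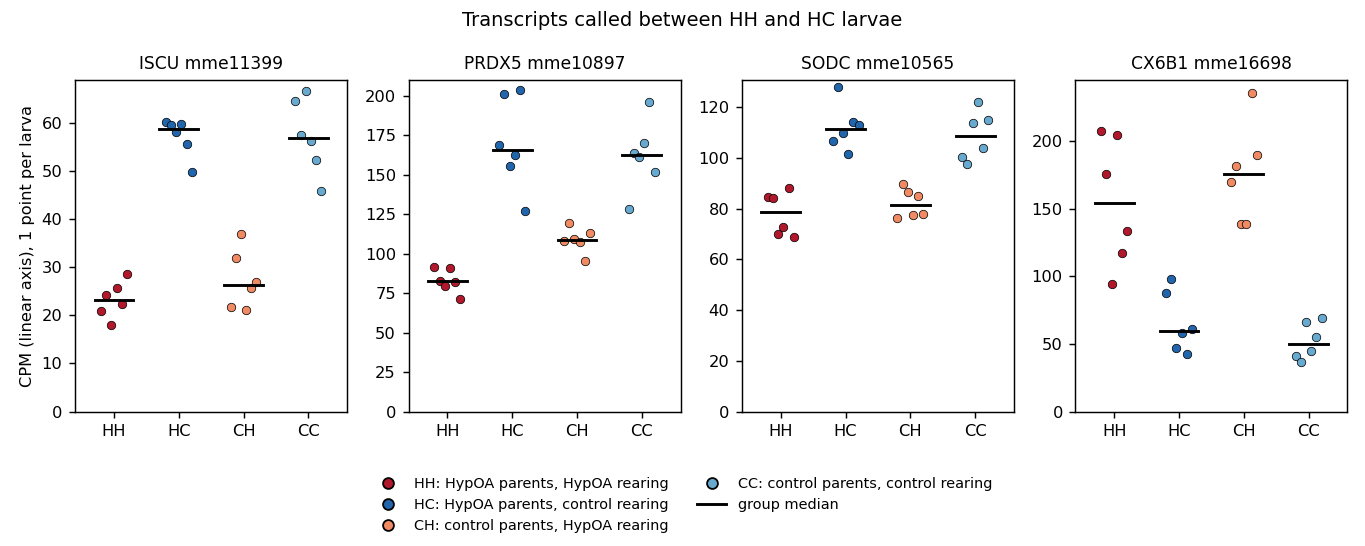
Levels of the 4 DETs between HH and HC larvae in CPM on linear axes, with 1 point per larva (n=6 per group) and the group median as a bar. HH points lie below all HC points for ISCU, PRDX5 and SODC, while for CX6B1 they lie mostly above, and CH and CC larvae are shown beside them.

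For the groups of genes below, symbols came from a shortened copy of the study's table. It held 1299 transcripts, 1208 with a symbol, all chosen because they were DETs between CH and CC larvae. Their CH minus CC values are therefore set by that choice and are given as a description. Of the 1299, 4 were DETs between HH and HC larvae, and 190 were higher and 101 lower at an unadjusted p below 0.05 (22.4% of the 1299). Of the 728 that were higher in CH larvae 26.4% passed this threshold, all but 3 of them higher in HH larvae, and of the 571 that were lower in CH larvae 17.3% did, 98 lower and 1 higher. In fitted level, 473 of these 571 were lower in HH larvae, and 634 of the 728 were higher. The median log2 fold change was 0.18 over the 728 (0.58 between CH and CC larvae) and -0.17 over the 571 (-0.77 between CH and CC larvae). The list medians below stand beside these, so a smaller response than between CH and CC larvae is not particular to a list. The list members come from these 1299, so both shares stand beside those over all transcripts (3.82% higher, 4.41% lower) as their background. HH minus HC had the opposite sign to CH minus CC in 192 of the 1299, and the same sign in 61.1% of all 17262 transcripts. The lists were chosen with earlier results of these data known, so where the DETs fall among them is a description only. The 4 DETs lay among the 9 transcripts listed for the respiratory chain, iron-sulfur clusters and antioxidant defence, and the other 14 lists held none in edgeR. DESeq2 called 10 list members, these 4 and HBBA mme15342 (FDR 0.00149), HBBA mme15343 (0.00149), MYMK mme00894 (0.00254), HBB mme15344 (0.00572), ECHB mme16166 (0.0058) and FINC mme00140 (0.0267).

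The remaining members of that list were not DETs. NFS1 (mme02886), the cysteine desulfurase that supplies sulfur to ISCU, had a median of 19.6 CPM in HH larvae and 31.1 CPM in HC larvae (log2 fold change -0.56, SE 0.18, edgeR FDR 0.317). ISCA1 (mme01682), which takes part in the maturation of iron-sulfur proteins, had medians of 29.7 CPM in HH larvae and 36.2 CPM in HC larvae (log2 fold change -0.35, SE 0.14, edgeR FDR 0.48). Both had the direction of ISCU, with overlapping larvae. COX5A, another subunit of cytochrome c oxidase, had a log2 fold change of 0.16, the peroxidase GPX3 0.15 and the transhydrogenase NNTM -0.14, each within its SE or close to it. The mean log2 level of the 9 transcripts, relative to the HC mean, ran between -0.36 and -0.20 in HH larvae and between -0.10 and 0.08 in HC larvae. This mean includes the 4 DETs, which were called on these same larvae, so its separation adds no support. In fitted level, 3 of the 9 were higher and 6 lower in HH larvae.

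The globin and haem list held no DET in edgeR, and its largest log2 fold change was that of a haemoglobin transcript. All 8 transcripts of the globin and haem list had higher fitted levels in HH larvae, beside 634 of the 728 transcripts that were higher in CH larvae. The median log2 fold change was 1.26, against -0.00184 over all transcripts and 0.18 over those 728. At an unadjusted p below 0.05 there were 6 of 8, beside 3.82% of all transcripts in this direction and 26.4% of those that were higher in CH larvae. For 4 of 8 the larvae did not overlap, beside 0.4% of all transcripts and 28 of the 728 that were higher in CH larvae, in this direction. HBBA mme15343, a beta subunit of haemoglobin, had lowest, median and highest levels of 17.1, 30.8 and 78.1 CPM in HH larvae, against 0.70, 2.27 and 5.83 CPM in HC larvae. The lowest HH larva was well above the highest HC larva (log2 fold change 3.62, SE 0.72, edgeR FDR 0.0712). In the offspring of control parents the log2 fold change was also 3.62, with a wider spread, the lowest CH larva having 5.55 CPM and the highest CC larva 14.5 CPM.

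The haemoglobin transcripts with neighbouring identifiers had lower levels. HBBA mme15342 had lowest, median and highest levels of 5.11, 11.3 and 23.7 CPM in HH larvae, against 0.67, 1.14 and 3.53 CPM in HC larvae (log2 fold change 3.06, SE 0.60, edgeR FDR 0.0712). HBB mme15344 had 2.00, 4.43 and 7.56 CPM in HH larvae, against 0.37, 0.52 and 0.87 CPM in HC larvae (log2 fold change 3.02, SE 0.69, edgeR FDR 0.131). Neither transcript had overlapping larvae, and raw counts in HC larvae were as low as 8 for HBBA mme15342 and 5 for HBB mme15344. Reads with several alignments were not counted, so reads shared by similar haemoglobin copies would be missing. How alike these copies are was not checked, so their separate levels are uncertain. HBBA mme15342 passed FDR 0.05 without HC 4 (0.0384), CC 2 (0.0376), CH 1 (0.0378), CH 2 (0.0474) or CH 4 (0.0252), and HBBA mme15343 passed without CC 2 (0.0371) or CH 5 (0.0258). With HH and HC larvae alone in the fit, both HBBA transcripts (FDR 0.00867 and 0.00613) and HBB (FDR 0.00284) passed.

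Haem supply and oxygen storage showed smaller differences. HEM0 (mme07522), the erythroid form of the enzyme that starts haem synthesis, had lowest, median and highest levels of 38.3, 43.5 and 74.0 CPM in HH larvae and 15.6, 27.4 and 33.8 CPM in HC larvae, without overlap (log2 fold change 0.91, SE 0.30, edgeR FDR 0.334). HEM1, the form found in all tissues, had a log2 fold change of 0.17 (edgeR FDR 0.888). MYG (mme18570), myoglobin, which stores oxygen in muscle, had medians of 2.55 CPM in HH larvae and 0.64 CPM in HC larvae, with overlapping ranges of 1.19 to 5.18 CPM in HH larvae and 0.08 to 2.32 CPM in HC larvae (log2 fold change 1.61, SE 0.64, edgeR FDR 0.473). HBAD (mme16843), an alpha subunit of haemoglobin, had medians of 5.00 CPM in HH larvae and 3.65 CPM in HC larvae (log2 fold change 0.48, edgeR FDR 0.668). CYGB2 (mme14487), a cytoglobin, had medians of 8.81 CPM in HH larvae and 6.54 CPM in HC larvae (log2 fold change 0.42, edgeR FDR 0.587). Summed over the 8 transcripts, the list took 94.1 to 186 CPM in HH larvae and 36.8 to 60.9 CPM in HC larvae. The haemoglobin and haem transcripts also mark red blood cells, and the part of red cell number in these values was not tested.

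The pancreatic digestive enzymes ran the other way, with a wide spread among HC larvae. All 14 had lower fitted levels in HH larvae, beside 473 of the 571 transcripts that were lower in CH larvae. The median log2 fold change was -1.80, against -4.01 in the offspring of control parents. The latter depends in part on CC 1, whose list sum was 1578 CPM, against 32.0 to 211 CPM in other CC larvae. At an unadjusted p below 0.05 there were 7 of 14, beside 4.41% of all transcripts in this direction and 17.3% of those that were lower in CH larvae. None was a DET in edgeR, and DESeq2 called none. The trypsin transcript TRY3 (mme06598) had lowest, median and highest levels of 0.43, 0.72 and 1.24 CPM in HH larvae, against 0.78, 5.20 and 22.8 CPM in HC larvae (log2 fold change -3.30, SE 1.08, edgeR FDR 0.328). TRY1 (mme06220), also a trypsin, had 0.35, 1.35 and 2.83 CPM in HH larvae, against 2.09, 7.23 and 41.6 CPM in HC larvae (log2 fold change -3.08, SE 1.03, edgeR FDR 0.346). The HC larvae differed widely among themselves, HC 3 being the highest and HC 6 the lowest for both trypsins, and HC 6 fell within the HH range for both. The other trypsin transcript, TRY1 mme06219, had medians of 0.51 CPM in HH larvae and 0.95 CPM in HC larvae.

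AMYP (mme13164), the pancreatic amylase that cleaves starch, had lowest, median and highest levels of 1.47, 4.69 and 11.2 CPM in HH larvae, against 11.1, 18.4 and 35.1 CPM in HC larvae (log2 fold change -1.85, SE 0.59, edgeR FDR 0.308). Its groups touched only where HH 4 exceeded HC 4. CEL2A (mme07611), an elastase, had medians of 1.83 CPM in HH larvae and 7.53 CPM in HC larvae (log2 fold change -2.34, SE 0.92, edgeR FDR 0.462). The elastase transcripts CEL2A mme01198 and CEL2A mme07610 lay at or under 2.73 CPM in all larvae of both groups. Summed over the list, HH larvae had 15.1 to 32.0 CPM (median 20.4) and HC larvae 31.5 to 199 CPM (median 53.3). Without HC 3, the highest larva, 3 of 14 members had an unadjusted p below 0.05, and without CC 1, which had the highest sum of all 24 larvae at 1578 CPM, 11 of 14 did.

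**Figure D2:**
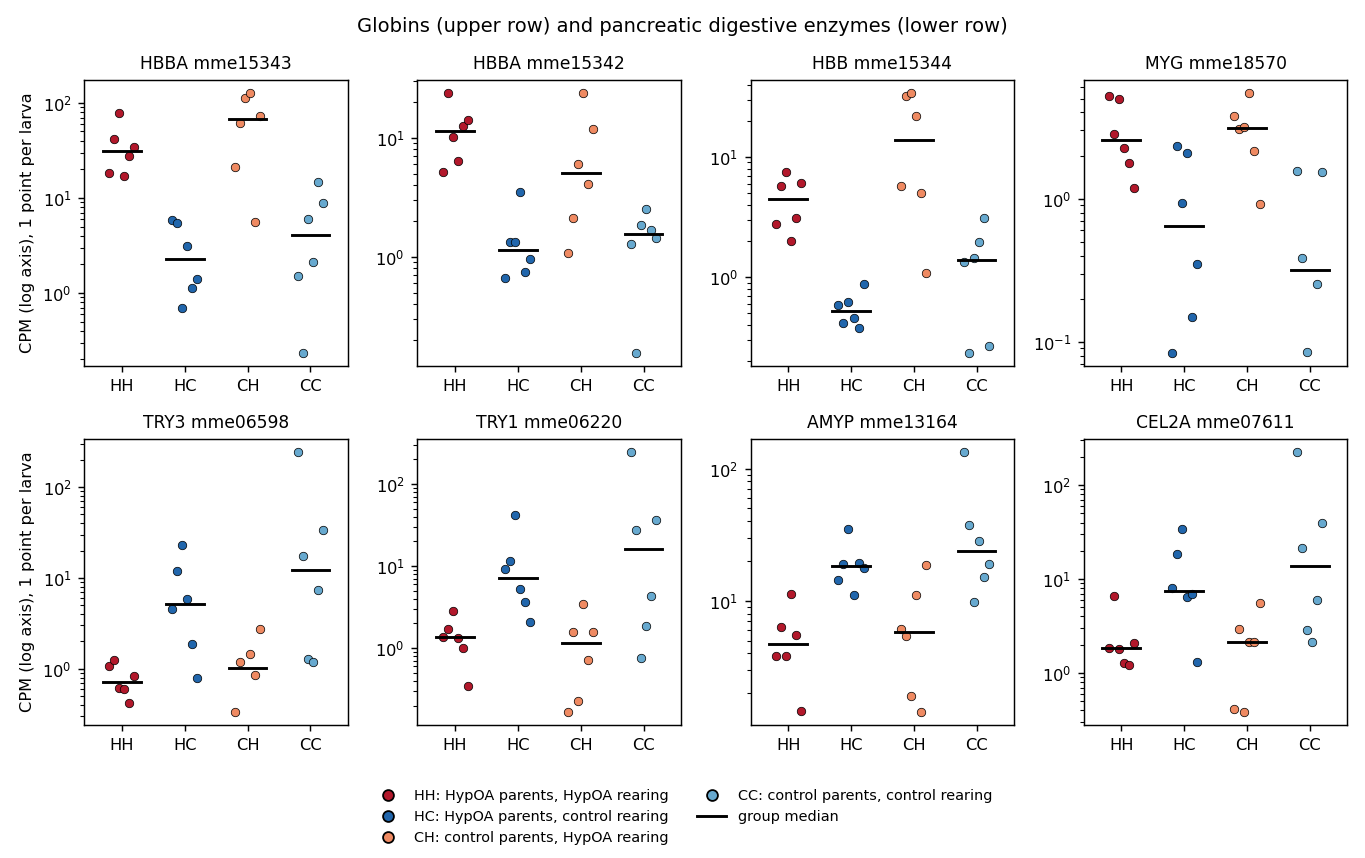
Levels of 4 globin transcripts (upper row) and 4 pancreatic digestive enzyme transcripts (lower row) in CPM on log axes, with 1 point per larva and the group median as a bar. A larva at 0 CPM has no point (1 CH larva for TRY3 and 1 CC larva for MYG), and HH larvae lie above all HC larvae for HBBA and HBB but share part of the HC range for MYG and the digestive enzymes.

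The transcripts listed for oxidation and for glycolysis had mostly small log2 fold changes, and none was a DET in edgeR. All 14 members of the list for branched-chain amino acid and fatty acid oxidation had lower fitted levels in HH larvae, beside 473 of the 571 transcripts that were lower in CH larvae. The median log2 fold change was -0.26, beside -0.17 over those 571, and it was -0.48 in the offspring of control parents. At an unadjusted p below 0.05 there were 8 of 14, beside 4.41% of all transcripts in this direction and 17.3% of those that were lower in CH larvae. ECHB (mme16166), the beta subunit of the mitochondrial trifunctional enzyme of fatty acid oxidation, had lowest, median and highest levels of 293, 320.4 and 331 CPM in HH larvae, against 362, 394 and 439 CPM in HC larvae. The larvae did not overlap, and the difference was the same in both parental treatments (log2 fold change -0.33 in each, edgeR FDR 0.137 for HH against HC). BCAT1 (mme14679), which starts the breakdown of branched-chain amino acids, had a log2 fold change of -0.58 (SE 0.17, edgeR FDR 0.261) and MCCB (mme09075), a subunit of the carboxylase in leucine breakdown, had -0.40 (SE 0.13, edgeR FDR 0.295).

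In the list for glycolysis and gluconeogenesis, 5 of 8 had higher and 3 of 8 lower fitted levels in HH larvae, with a median log2 fold change of 0.04, against 0.57 in the offspring of control parents. At an unadjusted p below 0.05, 3 were higher and 1 lower (50.0%), beside 3.82% and 4.41% of all transcripts and 22.4% of the 1299 in either direction. PGAM1 (mme13897), a glycolytic mutase, had medians of 188 CPM in HH larvae and 147 CPM in HC larvae (log2 fold change 0.33, SE 0.11, edgeR FDR 0.337). F262 (mme07186), an enzyme that sets the level of a strong allosteric activator of glycolysis, had lowest, median and highest levels of 27.1, 28.5 and 34.2 CPM in HH larvae and 21.04, 23.6 and 26.6 CPM in HC larvae, without overlap (log2 fold change 0.32, SE 0.14, edgeR FDR 0.517). F16P1 (mme01787), fructose-bisphosphatase, works in the opposite direction in gluconeogenesis and had a log2 fold change of 0.56 (SE 0.20, edgeR FDR 0.416). Without HH 1 or without HH 6, 2 of 8 had an unadjusted p below 0.05.

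The nervous system lists held no DET in edgeR, and DESeq2 called none of their members. Their median log2 fold changes stand beside 0.18 over the 728 transcripts that were higher in CH larvae (0.58 between CH and CC larvae). The lists do not hold every transcript of the nervous system. Outside them DESeq2 called CADM2 (log2 fold change 0.62, DESeq2 FDR 0.0287), LRFN4 (0.67, 0.0408) and LRRT2 (0.51, 0.0425), named here after their values were seen. Of all 64 DESeq2 calls, 22 were higher and 42 lower in HH larvae. In the presynaptic list, 12 of 33 members (36.4%) had an unadjusted p below 0.05, all higher in HH larvae, beside 3.82% of all transcripts and 26.4% of those that were higher in CH larvae (median log2 fold change 0.20, against 0.57 in the offspring of control parents). SYT2 (mme02951), a calcium sensor of synaptic vesicle release, had lowest, median and highest levels of 31.5, 36.9 and 50.6 CPM in HH larvae, against 24.2, 27.2 and 39.0 CPM in HC larvae (log2 fold change 0.42, SE 0.14, edgeR FDR 0.308). A single larva stood high in each group, HH 6 and HC 3. STXB5 (mme15788), a syntaxin-binding regulator of exocytosis, had the same level of 34.5 CPM in its lowest HH larva and its highest HC larva, so the groups met without overlapping (log2 fold change 0.39, SE 0.13, edgeR FDR 0.326). NRX2B (mme10640), a neurexin that links synaptic membranes, had a log2 fold change of 0.35 (SE 0.11, edgeR FDR 0.328).

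Of the transmitter receptors and transporters, 11 of 27 (40.7%) had an unadjusted p below 0.05, all higher in HH larvae, beside the same shares of 3.82% and 26.4% (median log2 fold change 0.23, against 0.71 in the offspring of control parents). GRIA4 (mme10372), an AMPA-type glutamate receptor subunit, had medians of 12.8 CPM in HH larvae and 9.47 CPM in HC larvae (log2 fold change 0.45, SE 0.14, edgeR FDR 0.274). SC6A1 (mme03084), the transporter that takes GABA back into cells, had medians of 108 CPM in HH larvae and 82.3 CPM in HC larvae (log2 fold change 0.39, SE 0.12, edgeR FDR 0.275). VGL2A (mme00235), which loads glutamate into vesicles, had a log2 fold change of 0.41 (SE 0.13, edgeR FDR 0.328), and DCE2 (mme12220), which makes GABA from glutamate, had 0.23 (SE 0.11, edgeR FDR 0.639). The ranges of HH and HC larvae overlapped for each of these. The count depended on single larvae, at 3 of 27 without HH 6 and 7 of 27 without HC 2 or without HC 4.

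In the list of voltage-gated ion channels, 11 of 26 were higher in HH larvae and 1 lower at an unadjusted p below 0.05. This share of 46.2% stands beside 8.24% of all transcripts and 26.4% of those that were higher in CH larvae. The median log2 fold change was 0.22, against 0.60 in the offspring of control parents. Without HH 6, 7 of 26 had an unadjusted p below 0.05 and the median was 0.14. The sodium channel transcripts SCN8A mme03377 and SCN8A mme07507 had log2 fold changes of 0.29 (SE 0.09, edgeR FDR 0.273) and 0.36 (SE 0.11, edgeR FDR 0.274), and CAC1B (mme11177), the pore of presynaptic N-type calcium channels, had 0.42 (SE 0.13, edgeR FDR 0.308). The member with a lower level was KCNA1 (mme14677), a potassium channel, with a log2 fold change of -0.64 (edgeR FDR 0.45), named here after its value was seen. Among 30 neural development transcripts 6 were higher and 0 lower at an unadjusted p below 0.05 in edgeR (20.0%), beside 3.82% higher over all transcripts and 26.4% of those that were higher in CH larvae. LHX5 (mme11655), a transcription factor of the developing brain, had lowest, median and highest levels of 13.97, 19.1 and 22.5 CPM in HH larvae and 9.96, 12.01 and 15.05 CPM in HC larvae, with 5 of 6 HH larvae above all HC larvae (log2 fold change 0.62, SE 0.16, edgeR FDR 0.188). Its relative LHX1 (mme05098) had a log2 fold change of 0.44 (edgeR FDR 0.275), SHH (mme12172), a signal that patterns the ventral neural tube, had 0.59 (edgeR FDR 0.416), and the neurotrophin BDNF (mme00226) had 0.20 (edgeR FDR 0.879). HH 6 had the highest level of all 6 HH larvae in each of the 4 nervous system lists, at 0.53 above the HC mean on the log2 scale for the transmitter list.

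**Figure D3:**
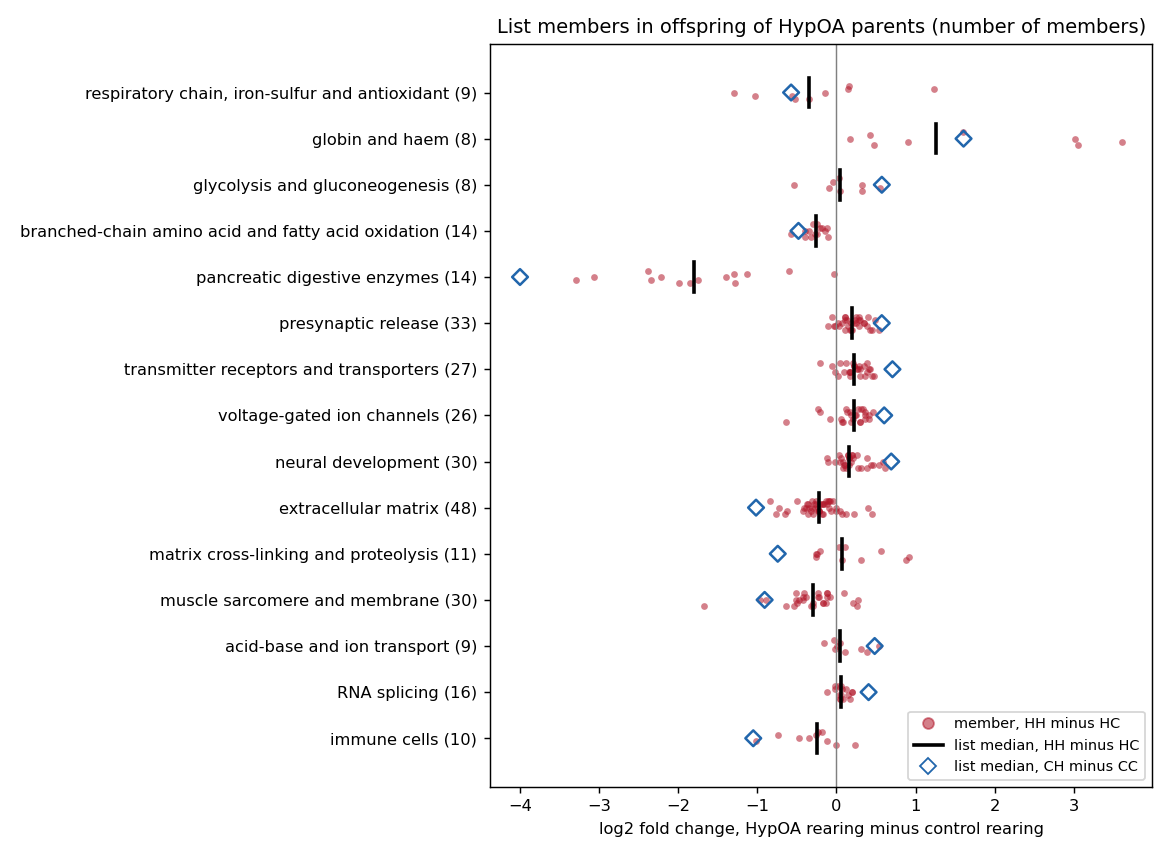
Log2 fold change of each list member between HH and HC larvae (points), with the list median (black bar) and the median of the same members between CH and CC larvae (open diamond). List members were chosen as DETs between CH and CC larvae, and the medians of HH minus HC lie nearer to 0 for all 15 lists, at 1.26 against 1.61 for globin and haem and -1.80 against -4.01 for the digestive enzymes. The value of -4.01 depends in part on CC 1, whose digestive enzyme sum was 1578 CPM, against 32.0 to 211 CPM in other CC larvae. Sums of both matrix lists were also high in CC 1, CC 2 and CC 4. Over the 728 transcripts higher in CH larvae the median was 0.18 against 0.58, and over the 571 lower it was -0.17 against -0.77.

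Structural transcripts were mostly lower in HH larvae in fitted level, with small differences. So were 473 of the 571 transcripts that were lower in CH larvae, from which most of these members came. Over those 571 the median log2 fold change was -0.17, and -0.77 between CH and CC larvae. In the extracellular matrix list, 42 of 48 had a negative log2 fold change (median -0.22, against -1.02 in the offspring of control parents), with 5 lower and 2 higher at an unadjusted p below 0.05 (14.6%, beside 8.24% of all transcripts and 17.3% of those that were lower in CH larvae). Without HH 6 the median was -0.14. The value of -1.02 depends in part on CC 1, CC 2 and CC 4, whose list sums were 14284, 13768 and 11373 CPM. Sums were 5685 to 7049 CPM in other CC larvae and 5229 to 7720 CPM in HC larvae. FINC (mme00140), fibronectin, had lowest, median and highest levels of 94.8, 145 and 220.5 CPM in HH larvae, against 197, 259.7 and 297 CPM in HC larvae, with 5 of 6 HH larvae below every HC larva (log2 fold change -0.76, SE 0.19, edgeR FDR 0.174). COHA1 (mme05521), the alpha chain of a transmembrane collagen, had a log2 fold change of -0.62 (SE 0.18, edgeR FDR 0.266), while CO9A3 (mme07217), a chain of cartilage collagen, had 0.40 (SE 0.13, edgeR FDR 0.365). The type I collagen transcript CO1A1 mme15489 had medians of 1111 CPM in HH larvae and 1261 CPM in HC larvae (log2 fold change -0.28, SE 0.19, edgeR FDR 0.77). CO1A1 mme18707 had a log2 fold change of -0.65 (edgeR FDR 0.773) and CO1A1 mme18700 had -0.08 (edgeR FDR 0.988), the sign of which turned without HH 1, HH 3, HH 6 or HC 4. Between CH and CC larvae the log2 fold changes of these 3 transcripts were -0.88, -1.79 and -1.68.

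In the list for matrix cross-linking and proteolysis the median log2 fold change was 0.07, against -0.74 in the offspring of control parents. List sums were 596, 472 and 354 CPM in CC 1, CC 2 and CC 4. They were 217 to 259 CPM in other CC larvae and 215 to 272 CPM in CH larvae. At an unadjusted p below 0.05, 2 of 11 were higher (18.2%), beside 3.82% of all transcripts and 22.4% of the 1299 in either direction. Both were lysyl oxidases (LYOX), which cross-link collagen and elastin. LYOX mme08650 had lowest, median and highest levels of 14.9, 28.1 and 39.2 CPM in HH larvae, against 9.21, 15.6 and 20.2 CPM in HC larvae (log2 fold change 0.89, SE 0.28, edgeR FDR 0.294). All HH larvae but HH 3 were above every HC larva. LYOX mme13192 had a log2 fold change of 0.92 (SE 0.30, edgeR FDR 0.314) and LYOX mme08651 had 0.56 (edgeR FDR 0.709), while BMP1 (mme01221), a protease that processes procollagen, had -0.27 (edgeR FDR 0.706).

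Muscle transcripts had a median log2 fold change of -0.29, against -0.91 in the offspring of control parents, and 10 of 30 were lower and 0 higher at an unadjusted p below 0.05 in edgeR (33.3%), beside 4.41% lower over all transcripts and 17.3% of those that were lower in CH larvae. Without HH 2 the count was 6 of 30, and without HC 6 the median was -0.17. MYMK (mme00894), the membrane protein that fuses myoblasts into fibres, had lowest, median and highest levels of 2.00, 2.63 and 4.05 CPM in HH larvae, against 3.90, 6.27 and 20.3 CPM in HC larvae (log2 fold change -1.67, SE 0.36, edgeR FDR 0.0813). The HC larvae spread widely, and 5 of 6 HH larvae lay below all of them. SRF (mme05820), a transcription factor of muscle genes, had a log2 fold change of -0.50 (SE 0.14, edgeR FDR 0.210), and MLRV (mme01029), a regulatory light chain of cardiac myosin, had -0.89 (SE 0.30, edgeR FDR 0.346).

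In the acid-base and ion transport list, 3 of 9 were higher at an unadjusted p below 0.05 (33.3%), beside 3.82% of all transcripts and 26.4% of those that were higher in CH larvae. Without HC 4 the count was 1 of 9. S4A8 (mme03380), a sodium-driven bicarbonate exchanger, had lowest, median and highest levels of 16.6, 19.3 and 24.6 CPM in HH larvae and 13.2, 14.97 and 16.04 CPM in HC larvae, without overlap (log2 fold change 0.39, SE 0.12, edgeR FDR 0.295). AT2B2 (mme03081), a calcium pump of the plasma membrane, had 0.31 (edgeR FDR 0.469) and CAH10 (mme16871), a carbonic anhydrase-related protein, had 0.54 (edgeR FDR 0.554). Of 16 RNA splicing transcripts, 15 of them higher in CH larvae, 0 had an unadjusted p below 0.05 in edgeR. This stands beside 8.24% of all transcripts and 26.4% of those that were higher in CH larvae. SREK1, RBM5 and RSRC2 had log2 fold changes of 0.17, 0.15 and 0.19, beside 0.49, 0.63 and 0.63 in the offspring of control parents. Among 10 immune transcripts 1 was higher and 1 lower at that threshold, a count of 1 without HC 2 and 4 without HH 4. The share of 20.0% stands beside 8.24% of all transcripts and 17.3% of those that were lower in CH larvae. MYD88 (mme12133), an adaptor of Toll-like receptors, had medians of 102 CPM in HH larvae and 86.1 CPM in HC larvae without overlap (log2 fold change 0.23, edgeR FDR 0.416). HG2A (mme04116), the invariant chain of antigen presentation, had a log2 fold change of -1.02 (edgeR FDR 0.446), and the protease CATS (mme06087) had -0.47 (edgeR FDR 0.723). Without HC 2 these values were -0.52 for HG2A and -0.19 for CATS.

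**Figure D4:**
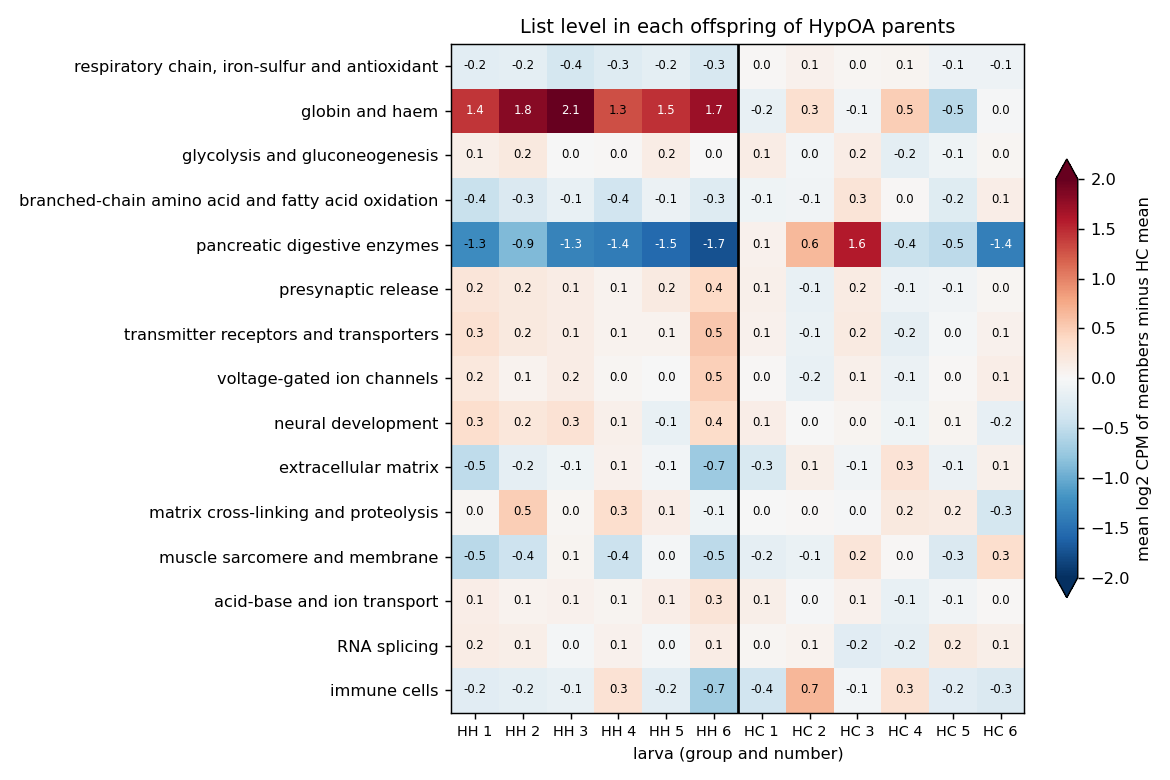
Mean log2 CPM of the members of each list in each larva, minus the mean of the HC larvae, for HH 1 to HH 6 (left) and HC 1 to HC 6 (right). Red marks a higher and blue a lower level, and globin and haem separate the groups (1.29 to 2.12 in HH larvae, -0.55 to 0.49 in HC larvae), while the digestive enzymes vary widely among HC larvae.

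Outside the lists, 10 transcripts higher and 10 lower in HH larvae were followed because they had the lowest p-values in each direction. DESeq2, run on the same counts, called all 20, which is no independent support. They include the 4 DETs and the haemoglobin transcripts above, and the edgeR FDR of the other members lay between 0.0712 and 0.134. SDF1 (mme14065), a chemokine that guides migrating cells, had lowest, median and highest levels of 17.01, 20.7 and 23.01 CPM in HH larvae, against 8.79, 10.1 and 13.9 CPM in HC larvae. The groups did not overlap (log2 fold change 0.97, SE 0.19, edgeR FDR 0.0712), and the FDR passed 0.05 without HC 5 (0.0494), CH 2 (0.0232) or CH 3 (0.00218) and with HH and HC larvae alone (0.00420). CMTA1 (mme03501), a calmodulin-binding transcription activator, had medians of 63.8 CPM in HH larvae and 45.7 CPM in HC larvae, again without overlap (log2 fold change 0.45, SE 0.10, edgeR FDR 0.12). NMES1 (mme00067) had a log2 fold change of 1.68 (SE 0.38, edgeR FDR 0.12) at levels of at most 5.72 CPM in HH larvae and 1.87 CPM in HC larvae.

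On the lower side, ASSY (mme11468), argininosuccinate synthase of the urea cycle and arginine synthesis, had lowest, median and highest levels of 47.0, 53.4 and 55.8 CPM in HH larvae, against 65.2, 83.0 and 101 CPM in HC larvae. The HH larvae were tightly grouped below all HC larvae (log2 fold change -0.66, SE 0.14, edgeR FDR 0.0813, and 0.0316 without CC 3). NET1 (mme17885) had medians of 71.0 CPM in HH larvae and 117 CPM in HC larvae without overlap (log2 fold change -0.71, SE 0.15, edgeR FDR 0.0813), and a like difference of -0.73 in the offspring of control parents. ASSY passed FDR 0.05 with HH and HC larvae alone (0.0452).

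Several of these transcripts had no symbol in the shortened copy of the study's table, and may have one in the full table. Symbols were known only for DETs between CH and CC larvae, though not for all of them. A small difference between CH and CC larvae is therefore partly set by that sorting. For 5 of the transcripts without a symbol this log2 fold change lay between -0.14 and 0.16, which is given as a description. The transcript mme03659 had lowest, median and highest levels of 4.11, 4.94 and 9.24 CPM in HH larvae, against 7.75, 36.6 and 90.5 CPM in HC larvae, 28.6 CPM at the median of CH larvae and 39.8 CPM at the median of CC larvae. HH was the single group in which all larvae were low (log2 fold change -2.85, SE 0.58, edgeR FDR 0.0737, against -0.09 between CH and CC). Its interaction of -2.77 (SE 0.77) did not pass the adjustment over all transcripts (edgeR FDR 0.366), and its FDR for HH against HC passed 0.05 without HC 4 (0.0384) or CC 2 (0.0371) and with both groups alone (0.0156). For mme14473, HH larvae had lowest, median and highest levels of 11.97, 19.6 and 27.9 CPM and HC larvae had 7.32, 8.70 and 12.6 CPM, with a log2 fold change of 0.98 (SE 0.21, edgeR FDR 0.0813) and of 0.16 between CH and CC larvae.

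The transcript mme16604 had lowest, median and highest levels of 18.2, 19.9 and 21.6 CPM in HH larvae, against 25.6, 28.0 and 39.9 CPM in HC larvae, without overlap (log2 fold change -0.59, SE 0.12, edgeR FDR 0.0813, and -0.05 between CH and CC larvae). The transcripts mme03986 and mme16715 had log2 fold changes of -0.49 and -0.73 between HH and HC larvae (edgeR FDR 0.0737 and 0.0813) and of -0.06 and -0.14 between CH and CC larvae. Their FDR passed 0.05 without HH 6 (0.0420) or CC 2 (0.0371) for mme03986 and without HH 2 (0.0273) for mme16715. None of these 5 interactions passed the adjustment over all transcripts (edgeR FDR 0.366 for each). The other transcripts without a symbol differed in the same direction in both parental treatments. For mme06601 the levels were 23.6 to 25.9 CPM among HH larvae and 14.6 to 21.4 CPM among HC larvae (log2 fold change 0.49, SE 0.11, edgeR FDR 0.134, and 0.24 between CH and CC larvae). For mme06314 the log2 fold change was -0.56 (SE 0.11, edgeR FDR 0.0712, with 0.0428 without CH 2, 0.0236 without CH 3 and 0.00613 with both groups alone), and for mme03656 it was 0.89 (SE 0.21, edgeR FDR 0.133). The abundant transcript mme09598 had medians of 1585 CPM in HH larvae and 2935 CPM in HC larvae without overlap (log2 fold change -1.04, SE 0.28, edgeR FDR 0.188).

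**Figure D5:**
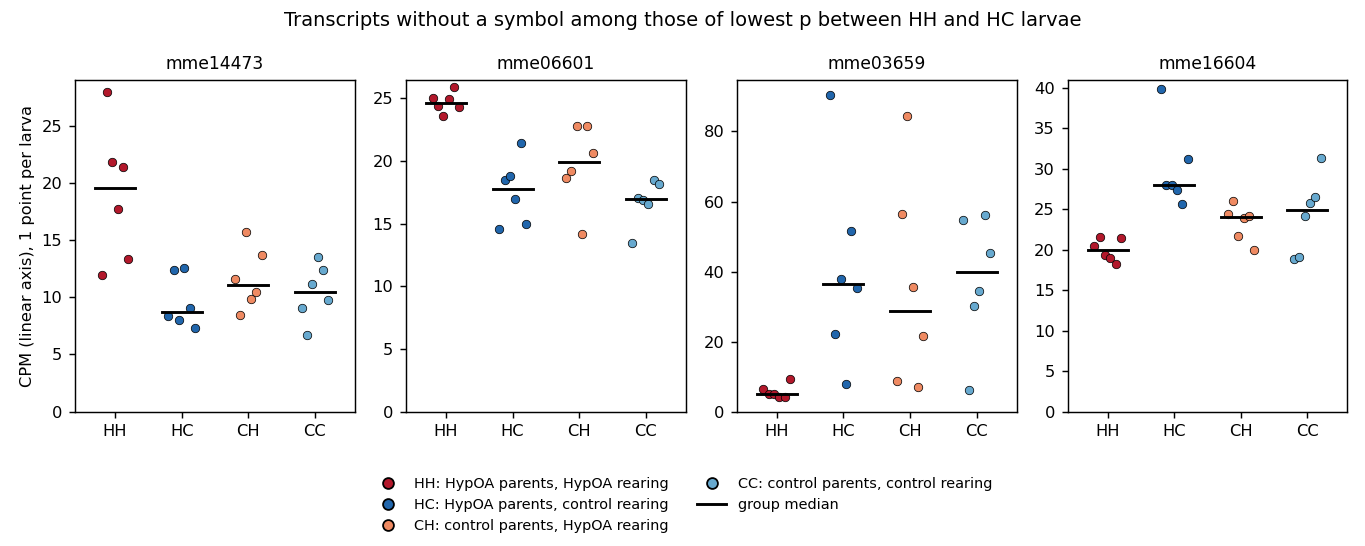
Levels of 4 transcripts for which no symbol was at hand, in CPM on linear axes. Each point is 1 larva (n=6 per group), and the bar is the group median. HH larvae are low for mme03659, at 4.11 to 9.24 CPM, while single larvae of the other groups reach 56.1 to 90.5 CPM, and HH larvae lie above all HC larvae for mme06601 and below them for mme16604.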

How the data were processed

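The authors trimmed paired-end reads of whole-larva RNA, aligned them with STAR 2.6.1d and deposited raw read counts per transcript and larva, made with HTSeq 0.11.1. The labels name Trimmomatic for trimming, and the study's methods name another tool. The reference was a published silverside genome, and its build name, like the counting options on strand and overlap, is not given in the sources used here. Deposited counts were whole numbers without normalization, and the 20651 entries were added up by gene, which gave 20210 genes. Neither library sizes nor tests include the 20.8% of reads without a feature, the 0.563% that were ambiguous and the 5.32% with several alignments (means over larvae).

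Calculations used edgeR 4.0.16, limma 3.58.1 and DESeq2 1.42.0 under R 4.3.3. After filterByExpr (minimum count 10, minimum total 15) and TMM scaling (0.861 to 1.18), the 24 larvae were fitted together in 1 quasi-likelihood model, 1 coefficient for each group, so that CH and CC larvae shared the estimate of spread with HH and HC larvae. A call had a Benjamini-Hochberg FDR under 0.05. Each SE was obtained as the absolute log2 fold change over the root of its F statistic. Log2 CPM has a prior count of 2. Expression profiles were compared by Manhattan distances over exact permutations. The code was tested on simulated counts.

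Larvae were grouped by label. The members, the lists and the naming rule were chosen with earlier results of these data known. Symbols came from a shortened copy of the study's table of results, which held 1299 transcripts called between CH and CC larvae. Transcripts given here without a symbol may have one in the full table. The rule named all DETs, the 10 lowest p-values in each direction and the 3 lowest in each of 15 lists. It also named 22 transcripts of selected genes that the study discusses, not of all such genes. Among non-overlapping transcripts whose mean log2 CPM exceeded 3, the 2 largest and 2 smallest log2 fold changes were named too. COX5A, GPX3, NNTM, NFS1, ISCA1, HEM0, HEM1 and HBAD complete the lists of the DETs and globins. Alternatives were DESeq2, limma-voom, the newer quasi-likelihood form, RLE factors, leaving out the filter or its group information, unsummed entries, a replicate block, a fit of HH and HC larvae alone, Euclidean distances, all reads in place of counted reads, and each larva left out.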

Additional observations from a re-analysis of the deposited data

Results flagged for a closer look

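Single larvae stood apart from the other 5 of their group by Dixon's test in 10 of 86 groups of named transcripts examined, where chance marks about 1 in 20 groups of normally distributed, independent values. Of these, 2 concern HH 6, which had 50.6 CPM of SYT2 (others 31.5 to 37.4 CPM) and 78.9 CPM of CMTA1 (others 58.5 to 66.1 CPM). In HC 3 the levels were 39.0 CPM of SYT2 (others 24.2 to 28.3 CPM), 58.0 CPM of CMTA1 (others 43.5 to 48.7 CPM) and 41.6 CPM of TRY1 mme06220 (others 2.09 to 11.4 CPM). HH 2 had 6.55 CPM of CEL2A mme07611 (others 1.21 to 2.10 CPM) and 12.9 CPM of mme16715 (others 7.65 to 9.30 CPM). HC 4 had 3.53 CPM of HBBA mme15342 (others 0.67 to 1.33 CPM), HC 5 had 13.9 CPM of SDF1 (others 8.79 to 10.4 CPM) and HC 2 had 12.4 CPM of mme03656 (others 6.15 to 8.33 CPM). Each of these was the highest larva of its group. CPM need not be normally distributed and the groups share larvae, so the number marked is no measure of an excess over chance.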

How the results depend on the processing

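ISCU and PRDX5 kept their call under every alternative that was run and without any larva, as did the direction of the other DETs. The 4 DETs between HH and HC larvae became 64 with DESeq2 (22 higher and 42 lower, all 4 among them), 14 with HH and HC larvae alone in the fit (3 of the 4 among them), 2 without HH 4, 7 without CH 2 and 8 without CC 2. Among the named transcripts the counts were 24, 10, 2, 7 and 8 under these settings. DESeq2 called 4 interactions, and leaving out a larva gave 0 to 0 in edgeR. The 1597 DETs between CH and CC larvae became 544 with those larvae alone, and 849 (without CC 1) to 2054 (without CC 3) with a larva left out. The share of distances for rearing, 0.125, was 0.123 with Euclidean distances (exact permutation p=0.0433) and 0.123 to 0.144 with a larva left out (exact permutation p=0.0346 to 0.123). The log2 difference in counted reads was 0.133 with all reads (exact permutation p=0.0368) and 0.0836 to 0.1503 with a larva left out. The 96 list members at an unadjusted p below 0.05 became 68 (without HH 6) to 102 (without CC 1). With a larva left out, the log2 fold change of CO1A1 mme18700 ran from -0.35 to 0.17, above 0 without HC 4 (0.17), HH 1 (0.0174), HH 3 (0.00324) or HH 6 (0.11), and the median of the matrix cross-linking and proteolysis list from -0.0212 to 0.13, below 0 without HC 3 (-0.00316) or HH 4 (-0.0212). The causes were not tested.

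Larvae with the same replicate number did not deviate together (correlations across transcripts between -0.156 and 0.0710, and 3 of 6 HH larvae were closest to the HC larva of their own number), so the numbers were not taken as pairs. With the replicate block 3 transcripts were called, ISCU, PRDX5 and HBBA mme15342 (FDR 0.0348), while SODC (0.0660) and CX6B1 (0.0948) were not. Depth limits the haemoglobin and enzyme transcripts, which had fewer than 10 reads in some larvae.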
